A study of Mus musculus with 48 samples.

Results

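The nuclear genes of the mitochondrial respiratory chain and the ATP synthase were followed in the livers of mice given dichloroacetic acid (DCA) in drinking water. Genes were chosen by symbol, as those whose names begin with Nduf, Uqcr, Cox4 to Cox8 or Atp5, together with Sdha, Sdhb, Sdhc and Sdhd. The rule found 79 of the 11275 genes measured in frozen (FROZ) tissue and 64 of the 6673 measured in formalin-fixed paraffin-embedded (FFPE) tissue, and all 64 were also among the 79. In FROZ they comprised 33 genes named for complex I, 3 for complex II, 8 for complex III, 11 for complex IV and 15 for complex V. The remaining 9 were 7 complex I assembly factors (Ndufaf1, Ndufaf3, Ndufaf4, Ndufaf5, Ndufaf6, Ndufaf7 and Ndufaf8) and 2 copies, Ndufb4c and the transcribed pseudogene Ndufs5-ps. The 15 genes measured in FROZ alone were 6 of those assembly factors, Ndufs5-ps, Ndufa5, Ndufc2, Ndufs4, Uqcrb, Cox5b, Cox6b2, Cox6c and Cox7a2. Sdhb was not analysed here.

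The respiratory chain passes electrons from NADH (through complex I) and succinate (through complex II) by way of ubiquinone, complex III and cytochrome c to oxygen at complex IV. Complexes I, III and IV pump protons across the inner mitochondrial membrane, and complex V, the ATP synthase, uses the returning protons to make ATP. Hepatocytes are rich in mitochondria, and DCA is known as an inhibitor of pyruvate dehydrogenase kinase, which lets pyruvate enter the mitochondrial citric acid cycle.

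The animals were male B6C3F1 mice 4 weeks of age, 6 per group, that drank water with DCA at 0, 1, 2 or 3.5 g/L, equal to 0, 198, 313 or 427 mg/kg-d, for 6 days. Each animal gave 1 FROZ and 1 FFPE liver library, so the 24 animals gave 48 libraries. The FROZ samples came from mixed lobes and the FFPE samples from the left lateral and right medial lobes, so preservation and lobe cannot be told apart, and the tissue had been stored for more than 20 years. RNA was measured by TempO-Seq, in which pairs of detector oligos are ligated on their target RNA, amplified and counted, and probes for several of these abundant genes were attenuated in the assay. The level of one gene could therefore not be compared with that of another, and comparisons below are across doses, for 1 gene or for the sum or median of a fixed set of genes. Values are CPM, read counts scaled to one total in every library, separately for FROZ and FFPE, and changes are on the log2(CPM + 1) scale, which understates the change of genes near 1 CPM. Reads in the genes kept for each kind of tissue, worked out from the CPM values, came to 6.69 to 9.84 M per library in FROZ and 1.83 to 6.01 M in FFPE. Reads outside those genes are not in these figures.

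Of the 8 hepatocyte markers listed for the tissue check all were measured in FROZ, and their summed level was 21727 to 27478 CPM in controls and 19017 to 23314 CPM at 427 mg/kg-d. Muscle was represented by Acta1 alone, since Ckm, Myh4, Tnnt3 and Mb were not analysed here. Acta1 stood at 1780 CPM in the FROZ library of control animal 5 and at 81.8 CPM in that of control animal 6, against 2.39 to 10.6 CPM in the other 22. Without animal 5, the counts of higher members given below at the 3 rising doses were 1, 48 and 57 in place of 2, 47 and 57, and without animal 6 they did not move.

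Promoter stretches that hold a core motif are shown first, for 5 of the members that rose most. All 5 genes rose at both upper doses, but so did members not shown. Among these, no core was found for Ndufa7, Ndufa12, Cox6b2, Uqcr10 or Uqcrfs1 in the search described below. That search covered 59 of the 70 subunit genes, and a gene without a promoter there also gave no core. The 5 genes shown are therefore examples with a core and do not stand for all members that rose most. Each line gives the 100 bases upstream of a transcription start in RefSeq (GRCm38.p6, minus strand, 5′ to 3′). For Atp5g3 that start lies inside the annotated gene (chr2:73908447-73912464), not at its outer end. Capitals mark a core motif of Nrf1, Gabpa or Esrra, transcription factors known for acting on nuclear genes of mitochondrial respiration. Atp5k, Atp5g3 and Atp5l encode subunits of the membrane part of the ATP synthase, Cox6b1 a subunit of complex IV and Sdhd a membrane anchor of complex II.
Atp5k (chr5:108434400-108434499), Nrf1 core: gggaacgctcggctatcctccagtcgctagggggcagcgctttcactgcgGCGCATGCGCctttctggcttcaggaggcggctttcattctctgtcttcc
Atp5g3 (chr2:73911327-73911426), Esrra core: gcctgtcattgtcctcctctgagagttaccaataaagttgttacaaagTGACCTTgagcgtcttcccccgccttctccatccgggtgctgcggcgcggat
Atp5l (chr9:44920743-44920842), Esrra core: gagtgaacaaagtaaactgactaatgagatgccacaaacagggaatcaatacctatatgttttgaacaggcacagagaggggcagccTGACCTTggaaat
Cox6b1 (chr7:30626115-30626214), Gabpa core: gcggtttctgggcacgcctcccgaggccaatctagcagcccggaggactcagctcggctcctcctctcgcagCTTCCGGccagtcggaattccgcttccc
Sdhd (chr9:50603850-50603949), Gabpa core: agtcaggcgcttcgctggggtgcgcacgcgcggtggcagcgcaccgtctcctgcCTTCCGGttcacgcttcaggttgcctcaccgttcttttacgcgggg

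The cores searched on both strands were GCGCATGC for Nrf1, CCGGAAG for Gabpa, AAGATGGC for Yy1 and AAGGTCA for Esrra, in windows from 250 bases before to 50 after the start. Of the 70 subunit genes, 59 had a promoter in the RefSeq table. The Nrf1 core was in 9 of the 59 (15.3%) and in 3.05% of 27025 mouse genes with promoters of the same length. A gene counted if any of its promoters held the core, and the 27025 were not limited to genes measured in these livers. The Gabpa core was in 15 (25.4%, against 9.93%), the Yy1 core in 8 (13.6%, against 3.19%) and the Esrra core in 7 (11.9%, against 5.38%). At least 1 core was in 30 of the 59 (50.8%) and in 19.7% of the 27025 genes. These are matches of letters, and binding was not measured.

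In FROZ liver most respiratory chain and ATP synthase genes were higher after DCA at the upper doses. At 198 mg/kg-d 2 of the 79 members were higher than in controls at an FDR-adjusted p-value under 0.05 by limma, where 1.12% of all genes were, and none was lower (background 0.443%). The middle dose had 47 higher (background 20.5%) and 1, Sdha, lower (background 6.15%). The top dose, 427 mg/kg-d, had 57 higher (background 22.7%) and none lower (background 7.33%). The median log2 fold change of the members was 0.14, 0.38 and 0.44 at the 3 doses, beside 0.07, 0.11 and 0.10 for all genes. No member reached a 2-fold change in FROZ on the log2(CPM + 1) scale. With an offset of 0.1 in place of 1, Cox6b2 and Cox7a2, both near or under 1 CPM in controls, passed the FDR and 2-fold at both upper doses. Among FROZ genes of mean 10 CPM or more, 42 of 64 members were higher at 313 mg/kg-d, beside 1828 of 5875 genes. At 427 mg/kg-d 54 of those 64 members were higher, beside 2043 of the 5875 genes. The 3 doses share the same 6 controls. In these whole-liver samples, more cells of a type and more RNA per cell cannot be told apart.

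Fewer members passed when each library was scaled by median ratios, which brought the median change of all FROZ genes, 0.07, 0.11 and 0.10 with CPM, to between -0.01 and 0.00. With that scaling, 30 members were higher and 1 lower at 313 mg/kg-d (background 10.3% and 10.8%), and 42 were higher and 1 lower at 427 mg/kg-d (background 12.6% in each direction). At 198 mg/kg-d none was called with it (background 0.257% higher and 0.843% lower). The members' medians were then 0.06, 0.24 and 0.30. By complex, the scaled counts of higher members at 313 and 427 mg/kg-d were 11 and 14 of 33 for I, 1 and 1 of 3 for II, 3 and 6 of 8 for III, 4 and 7 of 11 for IV, and 9 and 12 of 15 for V. The scaled medians were 0.23 and 0.27 for I, 0.31 and 0.27 for II, 0.25 and 0.37 for III, 0.31 and 0.38 for IV, and 0.26 and 0.40 for V. Higher genes made up 77.0% of all called FROZ genes at 313 mg/kg-d with CPM and 48.6% with median-ratio scaling, and at 427 mg/kg-d 75.6% and 50.0%.

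The groups also separated animal by animal for many members. In 26 of the 79 members at 313 mg/kg-d (background 9.14%) and 33 at 427 mg/kg-d (background 11.4%), all 6 treated FROZ libraries lay above all 6 controls. No member had all 6 below. Read together, the 70 subunit genes made up 1.195% ± 0.057 of all CPM in controls, 1.30% ± 0.03 at 198, 1.44% ± 0.07 at 313 and 1.57% ± 0.05 at 427 mg/kg-d (SD, n = 6). The control libraries ran from 1.09 to 1.25% and those at 427 mg/kg-d from 1.51 to 1.63%, with no overlap. From controls to 427 mg/kg-d the share of complex I went from 0.469 to 0.619%, that of complex III from 0.108 to 0.150%, that of complex IV from 0.0762 to 0.104% and that of complex V from 0.410 to 0.563%. Complex II had 0.131% and 0.129%. In such sums the probes that were read most weigh most.

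**Figure D1:**
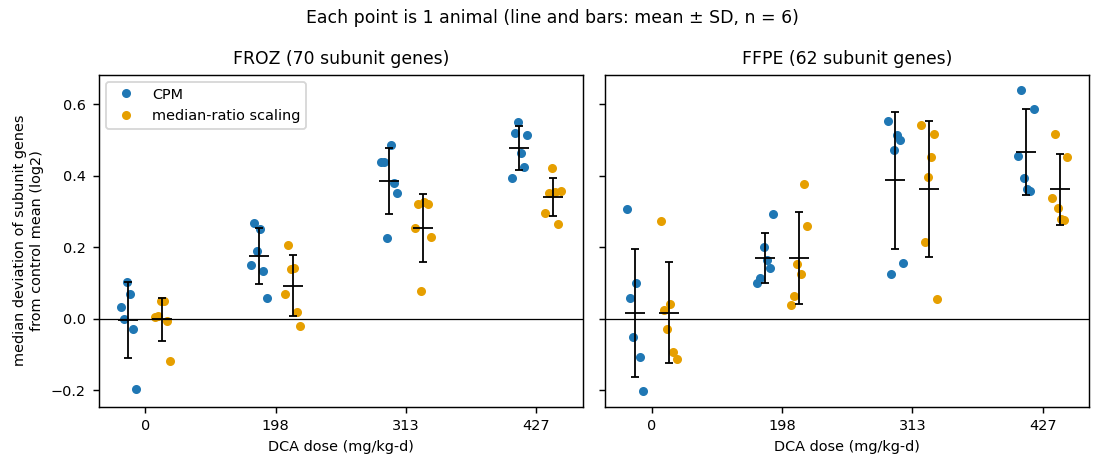
Median deviation of the subunit genes from their control means (log2, y axis) in each animal by DCA dose (mg/kg-d, x axis), in FROZ (70 genes) and FFPE (62 genes), with CPM (blue) and median-ratio scaling (orange), and lines and bars for mean ± SD. In FROZ with CPM the 6 controls sit between -0.20 and 0.10 and the 6 animals at 427 mg/kg-d between 0.39 and 0.55.

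Over the 4 doses, 59 members had a slope called positive in FROZ (background 24.4%) and 1, Sdha, one called negative (background 7.73%). The sign was positive for 77 of the 79 (97.5%) and for 63.9% of all FROZ genes. Ndufa12, an accessory subunit of complex I, rose by 0.17 ± 0.02 log2 units per 100 mg/kg-d (SE, FDR 9.6e-09), and Cox6b1 by 0.22 ± 0.02 (FDR 4.64e-08). Atp5g3 rose by 0.20 ± 0.02 (FDR 5.9e-08) and Sdhd by 0.19 ± 0.02 (FDR 1.515e-07).

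Complex I, NADH dehydrogenase, had 33 members with a median log2 fold change of 0.14, 0.37 and 0.40 at the 3 doses. Of these, 2 were higher at 198, 20 at 313 and 22 at 427 mg/kg-d, and none was lower. The pair higher at 198 mg/kg-d were Ndufa12 (0.36 ± 0.07, SE, FDR 0.013) and Ndufs3, a core subunit of the arm in the matrix (0.29 ± 0.07, FDR 0.0337). Ndufa12 had CPM of 124, 145 and 161 in controls (lowest, median and highest of 6), 173, 182 and 201 at 198, 198, 207 and 244 at 313, and 212, 237 and 266 at 427 mg/kg-d. Every treated library lay above every control at each of the 3 doses. The log2 fold change at the top dose was 0.72 ± 0.07 (FDR 2.46e-08), a 1.65-fold rise.

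Ndufb8, an accessory subunit of the membrane arm, stood at 9.97, 15.4 and 19.2 CPM in controls and at 20.3, 25.5 and 26.9 CPM at 427 mg/kg-d. The groups did not overlap, and the change was 0.68 ± 0.12 (FDR 8.92e-05). Ndufa7, another accessory subunit, went from 43.5, 47.5 and 50.5 CPM to 60.0, 73.1 and 93.0 CPM, again with no overlap (0.63 ± 0.11, FDR 4.38e-05). Of core subunits, Ndufs1, which carries iron-sulfur clusters, changed by 0.55 ± 0.14 at 427 mg/kg-d (FDR 0.00329) and Ndufs8, another iron-sulfur subunit, by 0.51 ± 0.14 (FDR 0.00713). Ndufv1, the subunit that binds NADH, had 0.23 ± 0.10 and did not pass (FDR 0.0949).

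The 11 complex I members that did not pass at 427 mg/kg-d were Ndufa2, Ndufa6, Ndufa10, Ndufb2, Ndufb3, Ndufb9, Ndufb11, Ndufs6, Ndufs7, Ndufv1 and Ndufv3, with log2 fold changes from 0.08 to 0.35. All 33 complex I estimates were positive at that dose, and 32 were with median-ratio scaling, beside 63.9% and 49.0% of all genes. Ndufa4 carries a complex I name but is now placed in complex IV. It stood at 114, 151 and 165 CPM in controls and 128, 206 and 247 CPM at 427 mg/kg-d, with overlap (0.39 ± 0.14, FDR 0.0359). With median-ratio scaling Ndufa4 no longer passed at either 313 or 427 mg/kg-d. The 7 assembly factors of complex I had a median of 0.13 at 427 mg/kg-d, close to the 0.10 of all genes. Of them Ndufaf4 (0.37 ± 0.11, FDR 0.0136) and Ndufaf6 (0.23 ± 0.08, FDR 0.0304) were higher, and none of the 7 was with median-ratio scaling.

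Ndufb4c was not an independent measurement. Its CPM was 0.0984 times that of Ndufb4 in every library, with a coefficient of variation of the ratio of 0.0134% over 24 FROZ libraries and 0.00363% over 24 FFPE libraries. All 50-base windows of its transcript are also found in another gene, most often in Ndufb4, so the same reads stood behind both genes. No other member came within 1% of a fixed ratio to another gene, of 77 members tested in FROZ and 51 in FFPE. Ndufb4 itself, an accessory subunit, rose from 112, 129 and 140 CPM in controls to 188, 192 and 203 CPM at 427 mg/kg-d (0.58 ± 0.07, FDR 2.01e-07). Ndufs5-ps is a transcribed pseudogene in RefSeq, its values may include reads of Ndufs5, which was not analysed here, and its change was 0.66 ± 0.13 (FDR 0.000382).

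**Figure D2:**
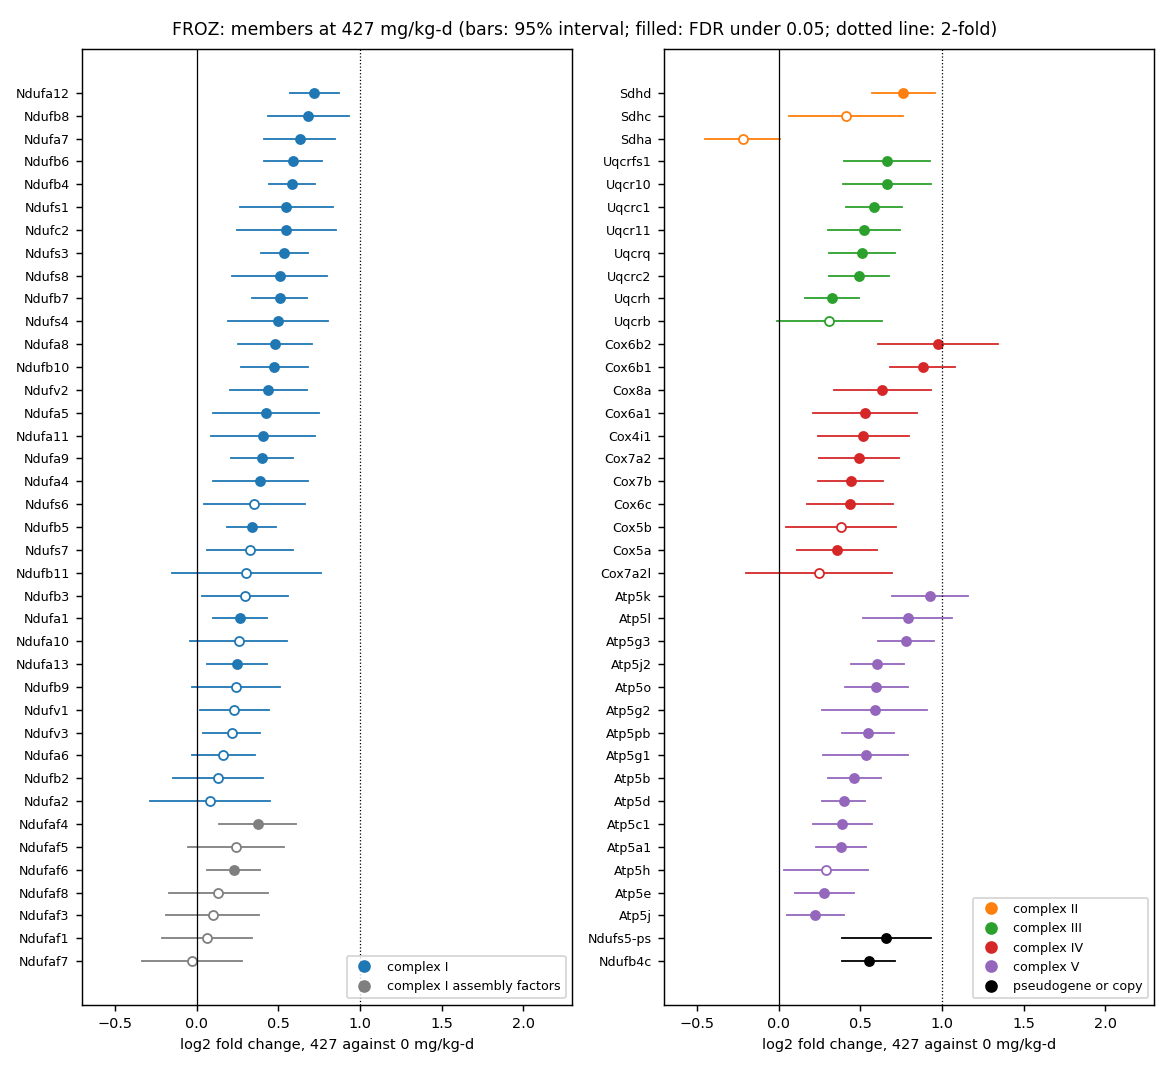
Log2 fold change (x axis) of 78 members in FROZ at 427 against 0 mg/kg-d, coloured by complex, with bars for 95% intervals, filled points for FDR under 0.05 and a dotted line at 2-fold. The 56 filled points all lie right of 0, and the 2 estimates below 0, Sdha and Ndufaf7, are open.

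Complex II, succinate dehydrogenase, was the one complex with called changes in both directions, at 313 mg/kg-d. Sdhd, a membrane anchor, stood at 18.4, 20.3 and 23.3 CPM in controls, 28.4, 32.6 and 43.1 CPM at 313 and 32.5, 35.1 and 40.1 CPM at 427 mg/kg-d. Neither upper dose overlapped the controls, and the changes were 0.70 ± 0.09 (FDR 3.93e-06) and 0.76 ± 0.09 (FDR 4.91e-07). Sdha, the flavoprotein that oxidizes succinate, went the other way and is named because it was the single member called lower. Its FROZ values were 879, 958 and 1197 CPM in controls, 559, 753 and 884 CPM at 313 and 730, 845 and 1004 CPM at 427 mg/kg-d.

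Of the 6 Sdha libraries at 313 mg/kg-d 5 lay below every control, and the log2 fold change was -0.44 ± 0.11 (FDR 0.00464). The top dose had -0.22 ± 0.11 with a 95% interval from -0.45 to 0.01, and did not pass (FDR 0.14). It passed there with median-ratio scaling (-0.37, FDR 0.0195) and with array quality weights (-0.26, FDR 0.0444). FFPE gave Sdha estimates of -0.35, -0.17 and -0.16 at the 3 doses, none of them called. The slope of Sdha, -0.07 ± 0.03 log2 units per 100 mg/kg-d (FDR 0.0484), lost its call in 17 of the 24 fits that left out 1 animal. Sdhc, the other anchor, had 0.45 ± 0.17 at 313 mg/kg-d (FDR 0.0529) and 0.41 ± 0.17 at 427 mg/kg-d (FDR 0.0705).

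Complex III, which passes electrons from ubiquinol to cytochrome c, had 7 of 8 members higher at both 313 and 427 mg/kg-d, with medians of 0.39 and 0.52. Uqcrfs1, the Rieske iron-sulfur protein, stood at 14.6, 18.3 and 23.8 CPM in controls, 25.6, 27.1 and 31.0 CPM at 313 and 22.2, 31.8 and 33.7 CPM at 427 mg/kg-d. The 313 mg/kg-d group lay wholly above controls, and the group at 427 mg/kg-d overlapped them in 1 library (0.58 ± 0.13, FDR 0.00141, and 0.66 ± 0.13, FDR 0.000251). Uqcr10, a small accessory subunit, went from 13.8, 18.4 and 25.5 CPM to 23.8, 30.6 and 33.1 CPM at 427 mg/kg-d (0.66 ± 0.13, FDR 0.000289). Uqcrc1, a large core subunit on the matrix side, went from 153, 169 and 186 CPM to 223, 252 and 273 CPM with no overlap (0.58 ± 0.08, FDR 6.09e-06). Uqcrb, which lies by the ubiquinone site, was the member that did not pass at either dose (0.31 ± 0.16 at 427 mg/kg-d, FDR 0.139).

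Complex IV, cytochrome c oxidase, had 7 of 11 members higher at 313 and 9 at 427 mg/kg-d, with medians of 0.39 and 0.49. Cox6b1, a subunit on the side of the membrane that faces cytochrome c, stood at 45.2, 57.4 and 63.2 CPM in controls, 61.7, 71.2 and 77.7 CPM at 198, 81.2, 95.5 and 116 CPM at 313 and 90.4, 104 and 110 CPM at 427 mg/kg-d. The upper doses lay wholly above the controls, with changes of 0.81 ± 0.10 (FDR 8.44e-07) and 0.88 ± 0.10 (FDR 9.21e-08), or 1.84-fold at 427 mg/kg-d. Its paralog Cox6b2, known as the testis form, had on the log2(CPM + 1) scale the largest estimate of all members in FROZ at 427 mg/kg-d, 0.97 ± 0.18 (FDR 0.000132). Cox6b2 was a low signal, with 5 to 13 reads per control library and 15 to 35 at 427 mg/kg-d. Its mean was 0.948 CPM in controls, 0.753 at 198, 2.78 at 313 and 2.87 at 427 mg/kg-d, a ratio of means of 3.02 at the top dose. Both upper doses lay wholly above controls. The estimate was 1.51 with an offset of 0.1 in place of 1.

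Of the other isoform sets of complex IV, Cox4i1, the common form of subunit 4, went from 29.9, 38.3 and 46.9 CPM in controls to 42.6, 54.8 and 67.7 CPM at 427 mg/kg-d with overlap. It passed at 427 mg/kg-d (0.52 ± 0.14, FDR 0.00439) and not at 313 mg/kg-d (0.33 ± 0.14, FDR 0.0689). Cox6a1, the liver form of subunit 6a, went from 5.76, 8.31 and 10.9 CPM to 8.37, 13.5 and 14.5 CPM, again with overlap, and passed at both (0.54 ± 0.16, FDR 0.0113, and 0.53 ± 0.16, FDR 0.0107). Cox8a went from 1.26, 2.18 and 2.98 CPM in controls to 2.92, 3.61 and 4.60 CPM at 427 mg/kg-d (0.63 ± 0.14, FDR 0.00139), with overlap in 1 library. Cox7a2, the form of subunit 7a found in liver, rested on 0 to 4 reads per control library and 4 to 8 at 427 mg/kg-d (0.49 ± 0.12, FDR 0.00247). Its ratio of means was 3.27 there, above that of Cox6b2, and its estimate 1.51 with an offset of 0.1. The Cox7a2 call at 313 mg/kg-d (0.34 ± 0.12, FDR 0.0348) was lost with median-ratio scaling, array quality weights, an offset of 0.0001 or only those 2 groups, and without control 4 or 8 or animal 73, 75 or 76. Cox7a2l, a relative of subunit 7a that joins complexes III and IV in supercomplexes, stood at 2.44, 2.96 and 5.99 CPM in controls and 2.70, 3.98 and 6.34 CPM at 427 mg/kg-d and was not called (0.25 ± 0.22, FDR 0.426). The muscle or inducible forms Cox4i2, Cox6a2, Cox7a1, Cox8b and Ndufa4l2 were not analysed here.

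Complex V, the ATP synthase, had 10 of 15 members higher at 313 and 14 at 427 mg/kg-d, with medians of 0.40 and 0.53. The 5 genes of the catalytic F1 head (Atp5a1, Atp5b, Atp5c1, Atp5d and Atp5e) all passed at 427 mg/kg-d, with a median of 0.39 and a range from 0.28 to 0.46. The 10 genes of the stalks and the membrane part had a median of 0.59 and a range from 0.22 to 0.93, and 9 of them passed. The difference between these groups of genes was not tested. Atp5h, a stalk subunit, did not pass (0.29 ± 0.13, FDR 0.086).

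Atp5k, the e subunit in the membrane, showed 127, 147 and 177 CPM in controls and 135, 141 and 178 CPM at 198 mg/kg-d, ranges that overlap almost wholly. It then stood at 160, 252 and 292 CPM at 313 and at 247, 287 and 298 CPM at 427 mg/kg-d. The change was 0.03 ± 0.11 at 198 (FDR 0.921), 0.70 ± 0.11 at 313 (FDR 4.17e-05) and 0.93 ± 0.11 at 427 mg/kg-d (FDR 4.42e-07), or 1.90-fold. Atp5l, the g subunit beside it, went from 15.5, 19.0 and 21.8 CPM in controls to 31.1, 33.3 and 37.1 CPM at 427 mg/kg-d with no overlap (0.79 ± 0.13, FDR 4.24e-05). Atp5g1, Atp5g2 and Atp5g3 encode the same mature c subunit of the rotor ring. Atp5g3 went from 112, 137 and 144 CPM to 216, 229 and 247 CPM (0.78 ± 0.08, FDR 6.31e-08), Atp5g1 from 6.54, 8.41 and 9.25 CPM to 8.60, 12.9 and 14.1 CPM (0.53 ± 0.13, FDR 0.00191) and Atp5g2 from 12.6, 17.4 and 20.5 CPM to 19.4, 25.8 and 34.1 CPM (0.59 ± 0.16, FDR 0.00538). Only Atp5g3 had no overlap among these 3 at 427 mg/kg-d, and 38.3% of the 50-base windows of Atp5g2 also occur in another gene.

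**Figure D3:**
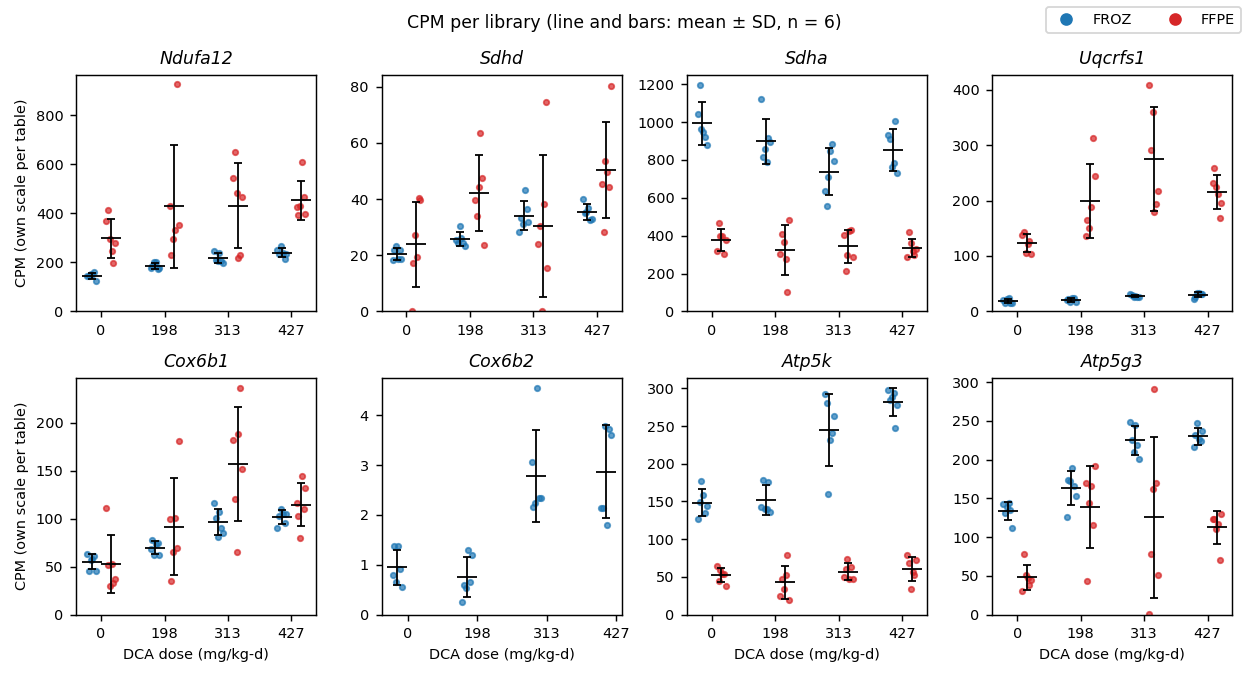
CPM (y axis, from 0, each table on its own scale) per library by DCA dose (mg/kg-d, x axis) for 8 members, FROZ in blue and FFPE in red, with lines and bars for mean ± SD (n = 6). In FROZ the 6 libraries at 427 mg/kg-d lie above all controls for Ndufa12, Sdhd, Cox6b1, Cox6b2, Atp5k and Atp5g3, the Sdha values lie lower at 313 mg/kg-d, and FFPE values spread more widely.

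FFPE libraries of the same animals had positive medians over all members at each dose, with far fewer calls. None of the 64 members was called at 198 mg/kg-d (background 0.03% in each direction), 2 were higher and none lower at 313 mg/kg-d (background 0.764% and 0.315%), and none was called at 427 mg/kg-d (background 1.54% and 0.869%). At 427 mg/kg-d 12 members were called higher with array quality weights, where 345 of all 6673 genes were. When only those 2 groups were fitted 13 members were higher, beside 275 of all genes. At an unadjusted p under 0.05 by limma, 7 members were higher and 4 lower at 198 mg/kg-d, where 785 of all 6673 genes were under it in either direction. The counts were 13 and 0 at 313 mg/kg-d (781 of all genes) and 14 and 1 at 427 mg/kg-d (581 of all genes). The members' median log2 fold changes were 0.08, 0.37 and 0.48, beside -0.19, -0.12 and 0.18 for all genes. FFPE depth differed by dose group, at 4.53 to 5.82 M reads in controls and 1.83 to 5.59 M at 198 mg/kg-d. It was 3.09 to 4.80 M at 313 and 4.23 to 6.01 M at 427 mg/kg-d. Genes at 0 per library were 137 to 795 in controls and 159 to 1593, 169 to 1452 and 67 to 256 at the 3 doses. With array quality weights the members' medians were 0.11, 0.35 and 0.45, beside -0.04, -0.07 and 0.15 for all genes. The part of depth in these medians was not tested. Estimates were positive for 90.6% of the members at 427 mg/kg-d and for 62.2% of all FFPE genes. By complex the FFPE medians at that dose were 0.48 for I, 0.60 for II, 0.31 for III, 0.33 for IV and 0.50 for V. The corresponding medians were 0.41, 0.19, 0.12, 0.70 and 0.20 at 313 mg/kg-d and -0.01, 0.62, 0.31, -0.02 and 0.08 at 198 mg/kg-d, where FROZ had 0.14, -0.15, 0.20, 0.14 and 0.13. The 62 subunit genes in FFPE made up 1.31% ± 0.11 of CPM in controls and 1.69% ± 0.14 at 427 mg/kg-d (SD, n = 6), and all 6 treated libraries (1.59 to 1.94%) lay above all 6 controls (1.219 to 1.503%). All 6 FFPE libraries lay above all 6 controls for 3 members at 313 mg/kg-d (background 0.959%) and 8 at 427 mg/kg-d (background 2.94%).

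The pair called in FFPE at 313 mg/kg-d were DEGs, passing the FDR and a 2-fold change. Cox6b1 stood at 29.8, 44.4 and 111 CPM in FFPE controls and at 65.4, 167 and 236 CPM at 313 mg/kg-d, with overlap in 1 library (1.61 ± 0.37, FDR 0.0193). The top dose had 80.3, 113 and 145 CPM (1.23 ± 0.37, FDR 0.0825). Uqcrfs1 stood at 103, 124 and 143 CPM in FFPE controls, 180, 254 and 408 CPM at 313 and 169, 218 and 260 CPM at 427 mg/kg-d, both doses wholly above controls. Its changes were 1.10 ± 0.24 (FDR 0.0114) and 0.81 ± 0.24 (FDR 0.0751). The Cox6b1 call at 313 mg/kg-d was lost in the fits that left out control 5, 7 or 8 or animal 73, 76 or 77, with log2 fold changes still between 1.47 and 1.55. Over all doses Cox6b1, Uqcrfs1 and Atp5o, the stalk subunit known for conferring oligomycin sensitivity, had slopes called positive in FFPE (background 1.51%), and no member had one called negative (background 0.659%). Of the members' 64 FFPE slopes 59 were positive in sign (92.2%), beside 58.4% of all FFPE genes.

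The FFPE values were less precise. The median SD between animals within a dose was 0.59 log2 units in FFPE and 0.18 in FROZ over the 64 shared members, and the median width of the 95% interval at 427 mg/kg-d was 1.45 and 0.42 log2 units. The FROZ estimate lay inside the FFPE interval for 54 of 64 members at 198, 59 at 313 and 61 at 427 mg/kg-d. Of the 64 FFPE intervals 49 also included 0 at 427 mg/kg-d. A test of the FFPE minus FROZ difference within animals called no member at 198, 313 or 427 mg/kg-d (background 0.0303%, 0% and 0.0303%), and 7, 0 and 4 members had an unadjusted p under 0.05 by limma, beside 750, 487 and 146 of all 6591 genes. The 4 at the top dose, picked once their values were known, were Ndufa10, Atp5k, Cox4i1 and Uqcrc1, each with a negative difference. Ndufa10, a complex I subunit, had the widest of these, -1.51 with a 95% interval from -2.62 to -0.40, at levels of 0.359, 1.73 and 16.4 CPM in FFPE controls and 0, 0.803 and 1.19 CPM at 427 mg/kg-d. Atp5k had 0.18 ± 0.38 in FFPE at 427 mg/kg-d, and its difference was -0.75 with a 95% interval from -1.45 to -0.05, not past the FDR. The median 95% interval of these differences was 1.54 log2 units wide, which limits the size of difference that could be seen.

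**Figure D4:**
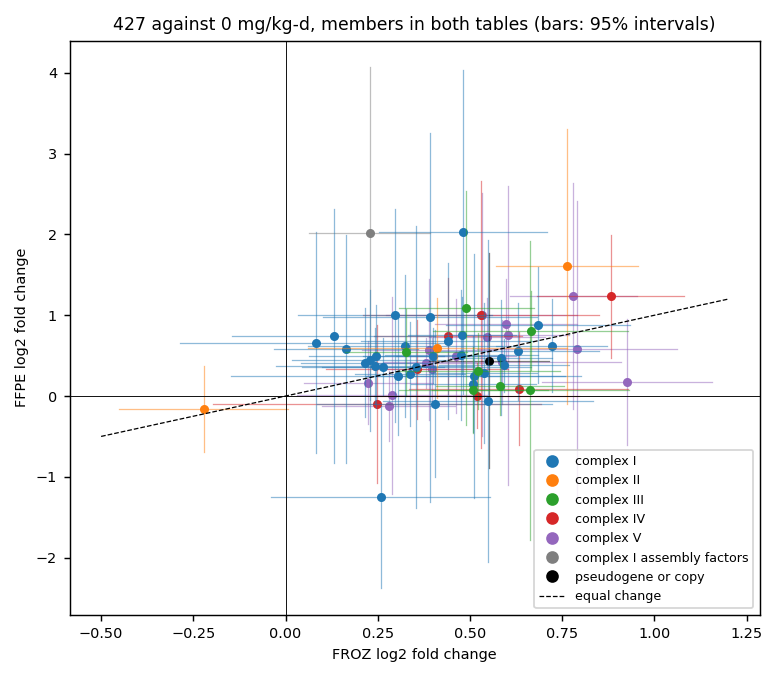
FFPE log2 fold change (y axis) against FROZ log2 fold change (x axis) at 427 against 0 mg/kg-d for the 64 members in both tables, coloured by complex, with bars for 95% intervals and a dashed line for equal change (the axes have different scales). Medians were 0.47 in FROZ and 0.48 in FFPE for these 64, and the FFPE bars are the longer ones.

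Other genes of mitochondrial respiration, from a list of 66, were read beside the members. Of these 44 were measured in FROZ, and 19 were higher and 1 lower at 313 mg/kg-d (background 20.5% and 6.15%). At 427 mg/kg-d 18 were higher and none lower (background 22.7% and 7.33%). With median-ratio scaling the counts were 10 and 1, then 8 and 0, beside 10.3% and 12.6% of all genes higher and 10.8% and 12.6% lower. The 13 subunits encoded by mitochondrial DNA were not analysed here, so the subunits reported are those of nuclear genes. Among electron carriers and their partners, Etfb, a subunit of the flavoprotein that carries electrons from fatty acid oxidation, stood at 501, 559 and 613 CPM in FROZ controls and 819, 895 and 1007 CPM at 427 mg/kg-d (0.71 ± 0.09, FDR 2.01e-06). In FFPE it also passed at 313 (0.75 ± 0.17, FDR 0.0136) and 427 mg/kg-d (0.62 ± 0.17, FDR 0.0345). Etfdh, which hands those electrons to ubiquinone, changed by 0.75 ± 0.11 at 427 mg/kg-d in FROZ (FDR 6.23e-06), Cyc1, the cytochrome c1 of complex III, by 0.57 ± 0.20 (FDR 0.0345), and Cycs, cytochrome c, by 0.44 ± 0.22, which did not pass (FDR 0.131).

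Of 29 assembly factors measured in FROZ outside the Ndufaf genes 12 were higher at 313 (background 20.5%) and 12 at 427 mg/kg-d (background 22.7%). None was lower (background 6.15% and 7.33%), and the medians were 0.26 and 0.30. With median-ratio scaling 5 of the 29 were higher at each of these doses (background 10.3% and 12.6%), counts too small to be set apart from those shares. Cox10, which makes heme for complex IV, had the largest change (0.87 ± 0.14 at 427 mg/kg-d, FDR 2.34e-05), followed by Uqcc1, for complex III (0.64 ± 0.08, FDR 4.32e-07), and Timmdc1, for complex I (0.51 ± 0.12, FDR 0.00232). Atpif1, the inhibitor of the ATP synthase, was at 0.406 to 1.62 CPM in controls and at 427 mg/kg-d and was not called (0.32 ± 0.15, FDR 0.113).

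Of 10 regulators in FROZ 3 were higher and 1 lower at 313 mg/kg-d and 3 higher at 427 mg/kg-d, and with median-ratio scaling 2 were higher and 1 lower, then 1 higher. With CPM 20.5% and 22.7% of all genes were called higher at these doses and 6.15% and 7.33% lower. With median-ratio scaling 10.3% and 12.6% were higher and 10.8% and 12.6% lower. With so few genes the counts of regulators are not set apart from those shares. Tfam packages mitochondrial DNA and helps its transcription to start. It stood at 11.6, 13.6 and 16.2 CPM in controls and 20.4, 22.7 and 25.7 CPM at 427 mg/kg-d with no overlap (0.70 ± 0.11, FDR 3.01e-05). Yy1 changed by 0.36 ± 0.09 and 0.34 ± 0.09 at the upper doses (FDR 0.00253 and 0.0035), Gabpa by 0.29 ± 0.09 at 313 mg/kg-d (FDR 0.0185) and Ppara, the nuclear receptor of fatty acid oxidation, by 0.39 ± 0.15 at 427 mg/kg-d (FDR 0.0434). Ppargc1a, the coactivator of mitochondrial biogenesis, was the regulator that was lower, by -0.68 ± 0.23 at 313 mg/kg-d (FDR 0.0268), with -0.28 ± 0.23 at 427 mg/kg-d (FDR 0.389). Nrf1 (0.23 ± 0.14, FDR 0.25) and Esrra (0.05 ± 0.16, FDR 0.852), whose cores are in the promoters above, were not called at 427 mg/kg-d.

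Some markers of other liver cells were lower in FROZ at the top dose, and no marker of any class was called at 198 mg/kg-d. With CPM 22.7% of all FROZ genes were called higher and 7.33% lower at 427 mg/kg-d. Of 4 Kupffer cell markers 2 were lower at 427 mg/kg-d (Adgre1 -0.50 ± 0.15, FDR 0.014, and Cd5l -0.46 ± 0.16, FDR 0.0313), with a summed level of 50.4 to 80.9 CPM in controls and 42.3 to 59.0 CPM at that dose. Of 5 endothelial markers 1, Stab2, was lower (-0.66 ± 0.10, FDR 1.69e-05), with sums of 118 to 138 CPM against 92.3 to 112 CPM. Of 4 stellate cell markers 2 were lower (Dcn -0.41 ± 0.10, FDR 0.00247, and Colec11 -0.37 ± 0.14, FDR 0.0491), with sums of 114 to 160 CPM against 97.2 to 134 CPM. None of 3 bile duct and 3 lymphocyte markers was called with CPM, with sums of 32.9 to 45.0 and 84.7 to 108 CPM in controls and 29.9 to 46.9 and 59.7 to 202 CPM at 427 mg/kg-d. Acta1, with the control values given above, was lower at 427 mg/kg-d (-2.54 ± 0.83, FDR 0.0207), and the adipocyte markers Adipoq, Plin1 and Ucp1 were not analysed here. Of the 8 hepatocyte markers Hnf4a was higher (0.45 ± 0.12, FDR 0.00441). With median-ratio scaling no hepatocyte marker was higher and 3 were lower at 427 mg/kg-d (background 12.6% in each direction). Also lower with that scaling were 3 endothelial, 2 Kupffer cell, 2 stellate cell and 1 bile duct marker. In FFPE at 427 mg/kg-d 2 of 7 hepatocyte markers were lower (background 0.869%), Apoa1 (-0.79 ± 0.18, FDR 0.00779) and Serpina1a (-1.26 ± 0.31, FDR 0.0179). The summed level of the 7 was 37830 to 50396 CPM in controls and 26479 to 31454 CPM at that dose, with no overlap. The part of these shifts in the members' changes was not tested.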

How the data were processed

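The authors aligned TempO-Seq reads to mm10 with STAR 2.6 in Partek Flow, assigned them to genes by expectation maximization, dropped genes of low level, and deposited log2 values of CPM with an offset of 1, scaled over each table's own genes. Depth was read from the lowest repeated values, at which 1 read was worth 0.102 to 0.150 CPM in FROZ and 0.166 to 0.546 CPM in FFPE. Genes were tested with limma 3.58.1 (R 4.3.3) with a trended prior on all 24 libraries of a table, with dose as a factor, and calls used a Benjamini-Hochberg FDR under 0.05 over all genes. A DEG also had a fold change above 2. Slopes used dose as a number. The FFPE minus FROZ difference was fitted on differences within animals. The same animal gave both libraries, and the median correlation of deviations over 4815 genes was 0.128 within and -0.023 between animals. Fits were checked on simulated data. Members and lists were chosen with earlier results of these data known. Members named were, by complex, up to 3 with the largest called increase and decrease at 427 mg/kg-d in either table, every DEG, every member differing between preservations, and isoform sets. Sdha and the other members named were chosen after their values were seen. The values of 1 member are not reported here on their own. P-values set each change against the spread between libraries of different animals. With 1 library per animal and tissue, spread between animals and spread of the measurement cannot be told apart. Reads carry no molecular identifiers.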

Additional observations from a re-analysis of the deposited data

Results flagged for a closer look

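In 15 of 160 dose groups of named members 1 library lay far from the other 5 by Dixon's test, where chance flags about 1 in 20 groups, or 8. Of these, 10 were in FFPE. All values here are log2(CPM + 1). The other 5 libraries are given as their range.

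In FROZ, Atp5g3 was low in control animal 8 (6.82, others 7.05 to 7.18), and Cox7a2l was high in control animal 5 (2.81, others 1.78 to 2.07). Ndufb8 was low in animal 75 at 313 mg/kg-d (4.19, others 4.66 to 4.72). Uqcr10 was low in animal 54 at 198 mg/kg-d (4.16, others 4.60 to 4.82) and in animal 97 at 427 mg/kg-d (4.63, others 4.94 to 5.09).

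In FFPE, Atp5g3 was low in animal 50 at 198 mg/kg-d (5.48, others 6.87 to 7.59), in animal 73 at 313 mg/kg-d (0.98, others 5.69 to 8.19) and in animal 101 at 427 mg/kg-d (6.17, others 6.80 to 7.03). Sdhd was listed at 0 in control animal 3 (others 4.19 to 5.37) and at 0 in animal 75 at 313 mg/kg-d (others 4.05 to 6.24), and Ndufa4 at 0 in animal 100 at 427 mg/kg-d (others 3.77 to 5.49). Ndufb8 was low in animal 97 at 427 mg/kg-d (7.27, others 7.58 to 7.75), and Sdha in animal 53 at 198 mg/kg-d (6.69, others 8.11 to 8.91). Uqcrc1 was low in animal 52 at 198 mg/kg-d (8.99, others 9.50 to 9.81) and high in animal 73 at 313 mg/kg-d (10.60, others 9.75 to 9.97).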

How the results depend on the processing

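Counts of members called higher in FROZ stayed within 1.5 times the reported count at 427 mg/kg-d and for the slope under every alternative, and at 313 mg/kg-d under all but median-ratio scaling, which gave 30 in place of 47. At 198 mg/kg-d the 2 calls became 0 with median-ratio scaling, 8 with only genes of mean 10 CPM or more, 1 without a trended prior, 5 with array quality weights and 1 with only the groups compared. All genes called higher were then 29, 236 (of 5875), 67, 146 and 53 in place of 126. Lower members at 427 mg/kg-d became 1 with median-ratio scaling and 1 with array quality weights. All genes called lower were then 1424 and 984 of 11275 in place of 826. The lower slope became 0 without a trended prior, beside 849 of all genes in place of 872. In FFPE, the prior without trend gave 0 higher members at 313 mg/kg-d, where 28 of all 6673 genes were higher in place of 51. It also gave 0 for the slope, where 65 of all genes were higher in place of 101. At 427 mg/kg-d array quality weights gave 12 and the groups compared alone 13 higher members in place of 0. All genes called higher were then 345 and 275 of 6673 in place of 103. For the FFPE slope, median-ratio scaling gave 1 and array quality weights 12 in place of 3, beside 90 and 338 of all genes in place of 101. The FROZ median of complex IV at 313 mg/kg-d, 0.39, was 0.59 with an offset of 0.1 and 0.60 with one of 0.0001. The cause was not tested.

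Leaving out each animal in turn gave 1 to 3 higher members in FROZ at 198 mg/kg-d (1 without control 3, 4, 5, 7 or 8 or animal 50 or 52), 43 to 48 at 313, 51 to 59 at 427 mg/kg-d and 52 to 61 for the slope, and 0, 1, 0 and 0 to 1 lower members. In FFPE it gave 0 at 198, 1 to 3 at 313 (1 without control 5, 7 or 8 or animal 73, 76 or 77), 0 to 1 at 427 mg/kg-d (1 without control 3 or animal 53 or 54) and 0 to 4 for the slope (0 without control 4, 5, 6 or 7, and 1 without control 3 or 8 or animal 97, 98 or 100), with 0 lower. The within-animal difference called 0 members under every alternative, also with no replicate block. No called result changed direction under any alternative run. Depth and the wide FFPE intervals limit what FFPE calls can show.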
